A study of Saccharomyces cerevisiae with 4 samples.

Results

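The guanine nucleotide branch of purine synthesis was followed through IMD2, IMD3, IMD4 and GUA1, which are 4 of the 5539 named genes on the arrays. They were taken as every gene that the platform annotation assigns to IMP dehydrogenase or to GMP synthetase, and each had 1 probe. The group was selected on the mean log ratio of the same 4 arrays, in which IMD2 had passed the test over all features, so the ratios of these genes are given as a description without a test. IMD1, a further IMP dehydrogenase copy, is not analysed here.

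Total RNA of 2 strains of the yeast Saccharomyces cerevisiae was hybridised together on each of 4 two-channel arrays, with the abf1-1 mutant in channel 1 and the wild type in channel 2. The allele is temperature sensitive, and Abf1 is a DNA-binding protein that yeast needs to live and that acts at promoters, silencers and replication origins. Both strains grew in YPAD, a rich medium with adenine, at 30 °C until the OD600 was 1.0 to 1.2. They then received their own volume of YPAD preheated to 42 °C and were kept at 36 °C for 45 min, so the wild type had the same heat treatment as the mutant. Whether separate cultures lay behind the 4 arrays is not stated, so the spread between arrays may be technical.

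IMP stands at the fork between adenine and guanine nucleotides. IMP dehydrogenase, encoded by the IMD genes, oxidises IMP to XMP in the rate-limiting step towards guanine, and GMP synthetase, encoded by GUA1, aminates XMP to GMP. IMD2 is known in yeast for a promoter that senses GTP: when guanine nucleotides are plentiful, transcripts start upstream and are terminated early by the Nrd1 complex, and when they are scarce, transcription starts further down and gives the full mRNA. Mycophenolic acid, an inhibitor of the enzyme, induces IMD2, whose product is the drug-resistant form.

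Values are log ratios, taken as log2, after each array was centred on its median. The sign is as deposited, since neither the labels nor the table state the numerator of the ratio. The log base is not stated either, so the fold differences below hold only if it is log2. A change in total RNA per cell and a change in the share of a transcript cannot be told apart in such ratios. The arrays formed pairs. Pearson's r over probes, which are no independent replicates, was 0.74 for arrays 1 and 3 and 0.86 for arrays 2 and 4, and between -0.22 and 0.05 across the pairs. ABF1 itself had 0.99, 1.69, 1.96 and 1.82 on arrays 1 to 4, which does not check the labels, since abf1-1 is no deletion. On each array 35 to 46 probes shared 1 exact value of unknown meaning, and none of the 4 guanine branch genes carried it.

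The 4 genes split into 2 with positive ratios and 2 with lower ones. IMD2 (YHR216W, chromosome VIII) had log2 ratios of 0.93, 0.38, 0.92 and 0.82 on arrays 1 to 4. All 4 values were positive, with array 2 the lowest and the other 3 close together, and the mean was 0.76 ± 0.26 (SD, n = 4), a 1.70-fold difference between the strains. IMD3 (YLR432W, chromosome XII), which encodes another isoform of the enzyme, had 1.01, 0.31, 1.17 and 0.62. It too was positive on every array, highest on arrays 1 and 3, with a mean of 0.78 ± 0.39 and a 1.71-fold difference.

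The isoform gene IMD4 (YML056C, chromosome XIII), whose intron carries a small nucleolar RNA gene, had ratios of -0.13, -0.58, -0.12 and -0.43 on arrays 1 to 4. All were negative, but those of arrays 1 and 3 lay near 0, and the mean was -0.31 ± 0.23 (SD, n = 4), a 1.24-fold difference. GUA1 (YMR217W, chromosome XIII) had 0.05, -0.98, -0.01 and -0.73. It was clearly negative on arrays 2 and 4 and about 0 on arrays 1 and 3, so its mean of -0.42 ± 0.52, a 1.33-fold difference, was smaller than its SD.

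**Figure D1:**
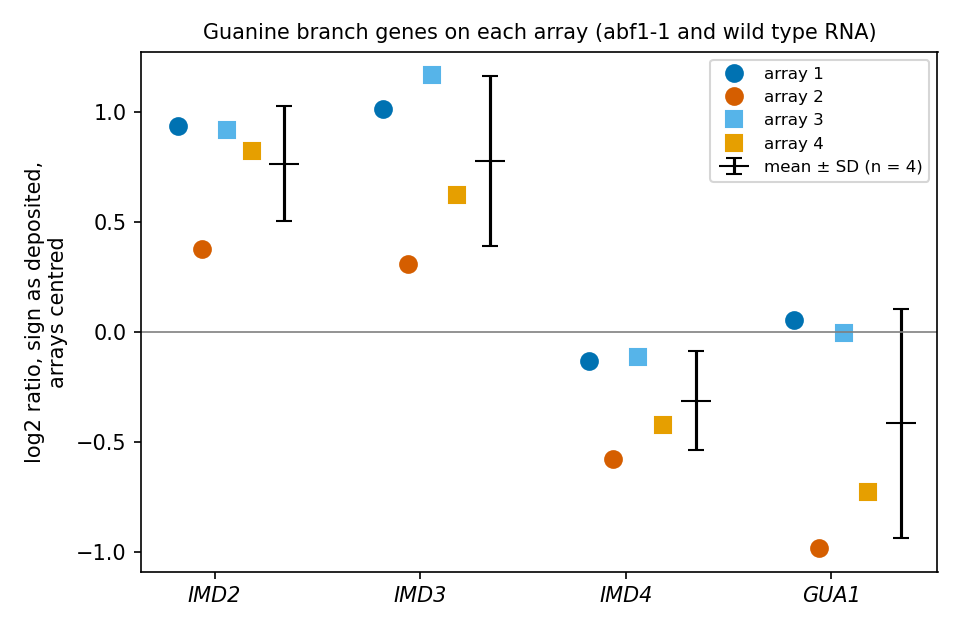
Log2 ratios of the 4 guanine branch genes (vertical axis, sign as deposited, arrays centred) on arrays 1 to 4, with the mean ± SD of the 4 arrays in black. IMD2 and IMD3 lie above 0 on every array, IMD4 below 0 on every array, and GUA1 about 0 on arrays 1 and 3 and near -0.98 and -0.73 on arrays 2 and 4.

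Ordered by the mean ratio, IMD3 and IMD2 were followed by IMD4 and GUA1. IMD3 ranked 72 and IMD2 ranked 80 from the top of the 5539 named genes, while GUA1 ranked 429 and IMD4 ranked 723 from the bottom. IMD2 exceeded 98.2%, 78.0%, 98.6% and 93.6% of named genes on arrays 1 to 4. GUA1 exceeded 53.7%, 2.71%, 47.8% and 3.52%, so it stood mid-field on arrays 1 and 3 and near the bottom on arrays 2 and 4. The neighbours in this order, IMD3 with IMD2 and IMD4 with GUA1, overlapped in their values over the arrays, whereas the lowest value of IMD2, 0.38, lay above the highest of IMD4, -0.12.

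In the fit over all features (limma, ratio against 0, Benjamini-Hochberg adjusted p below 0.05), 1 of the 4 genes was called, IMD2 with a positive ratio, against 3.23% of all features called and 1.37% called positive. With a term for the array pair, whose error is the spread inside each pair, all 4 of the 4 genes passed, against 32.7% of all features. This is the contrast that the selection used, and nothing is read from either count. The values next to the threshold were adjusted p = 0.0489 for IMD2 and 0.0784 for IMD3 in limma's fit. The call of IMD2 depended on every array, with a limma adjusted p between 0.0793 and 0.275 when any 1 array was left out. The ratios had 1 sign on all 4 arrays for 3 of the 4 genes, IMD2, IMD3 and IMD4, against 31.1% of all features. These are the values that the selection used, so nothing is read from this count either.

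Within an array IMD2 and IMD3 each stood about 1 log2 unit above IMD4. The ratio of IMD2 minus that of IMD4 was 1.07, 0.95, 1.03 and 1.25 on arrays 1 to 4, with a mean of 1.08 ± 0.12 (SD, n = 4). The ratio of IMD3 minus that of IMD4 was 1.14, 0.89, 1.28 and 1.05, with a mean of 1.09 ± 0.17. Both differences were positive on every array, do not depend on how an array is centred, and are given without a test. IMD2 minus IMD3 was -0.08, 0.07, -0.25 and 0.20, a mean of -0.01 ± 0.19 with both signs, negative on arrays 1 and 3 and positive on arrays 2 and 4, so no order of these isoforms was resolved.

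Between the genes of the successive steps, the ratio of IMD2 minus that of GUA1 was 0.88, 1.36, 0.92 and 1.55. IMD3 minus GUA1 was 0.96, 1.29, 1.17 and 1.35. The ratios of IMD2 and IMD3 thus stood above that of GUA1 on every array, by 1.18 ± 0.33 and 1.19 ± 0.17 (SD, n = 4), but that of IMD4 did not. IMD4 minus GUA1 was -0.19, 0.41, -0.11 and 0.30, and changed sign with the pair. The IMD copies are near identical and may share signal on an array of this kind, and how much of the signal of IMD2 comes from IMD3 or IMD1 was not tested.

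**Figure D2:**
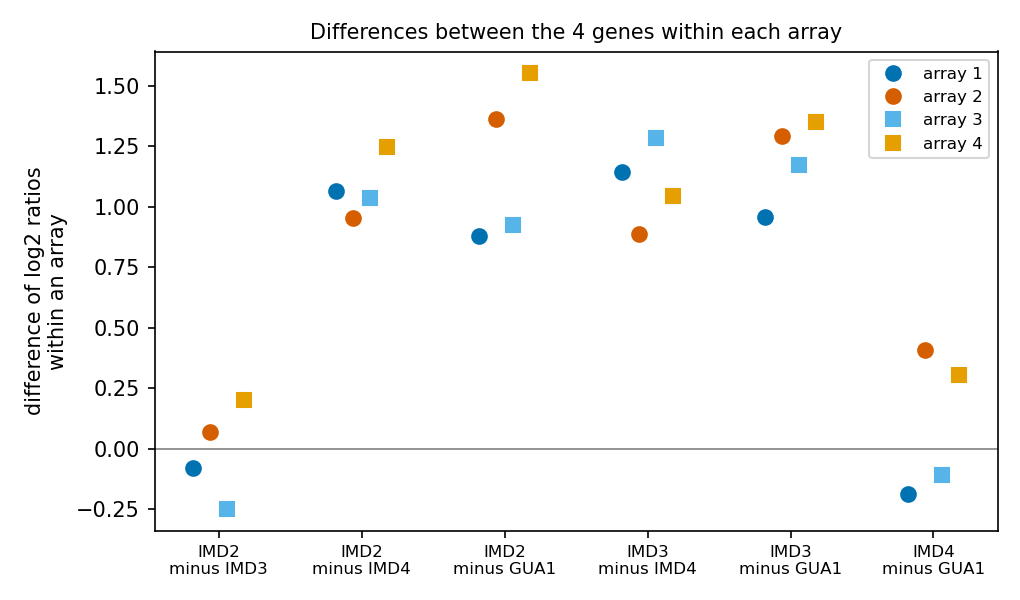
Difference of the log2 ratios of each pair of genes within an array (vertical axis), 1 point per array. IMD2 minus IMD4 and IMD3 minus IMD4 lie between 0.89 and 1.28 on all 4 arrays, while IMD2 minus IMD3 and IMD4 minus GUA1 have both signs.

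All 4 genes had higher ratios on arrays 1 and 3 than on arrays 2 and 4, with no overlap between the pairs, as had 40% of all features. The gap between the pair means was largest for GUA1, which had 0.02 on arrays 1 and 3 and -0.86 on arrays 2 and 4, a gap of 0.88. It exceeded the gap of 97.3% of named genes. For IMD3 the pair means were 1.09 and 0.47, for IMD2 0.93 and 0.60, and for IMD4 -0.12 and -0.50. IMD2, IMD3 and IMD4 thus kept their sign in both pairs. Their gaps of 0.33, 0.62 and 0.38 exceeded those of 68.5%, 88.6% and 71.9% of named genes. No batch or dye swap in the labels parts the arrays this way.

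**Figure D3:**
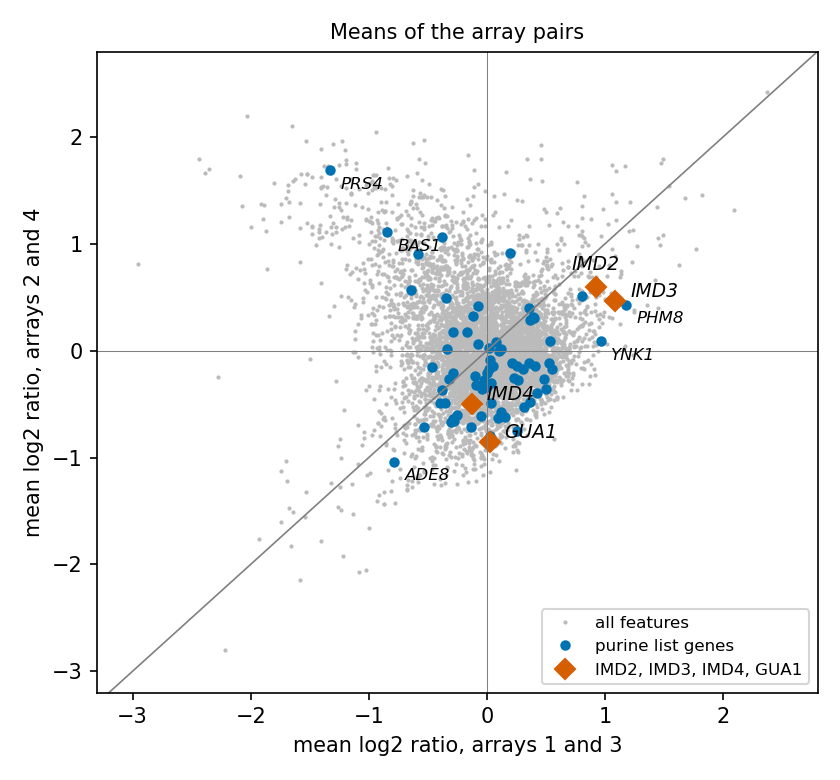
Mean log2 ratio on arrays 1 and 3 (horizontal axis) against arrays 2 and 4 (vertical axis) for all 6189 features in grey, the 69 purine list genes in blue and the 4 guanine branch genes as diamonds. The diagonal marks equal means, and all 4 diamonds lie below it.

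The genes most like each of the 4 were found by the Euclidean distance over the 4 centred log2 ratios among all 5538 other named genes. IMD2 lay nearest to MEP2, for an ammonium permease, ERO1, for the oxidase of disulfide formation in the endoplasmic reticulum, and YRO2, at distances of 0.19, 0.19 and 0.20 against a median of 1.71. IMD3 was the 16th nearest gene to IMD2, at 0.34. IMD3 itself lay nearest to CAR2, for ornithine transaminase, DAL3, for an enzyme of allantoin breakdown, and SPI1, for a cell wall protein, at 0.16, 0.18 and 0.23.

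IMD4 lay nearest to HST2, for a deacetylase of the Sir2 family, SOL1 and the proteasome subunit gene PUP3, at 0.09, 0.09 and 0.11. GUA1 lay nearest to 3 genes of cytosolic ribosomal proteins, RPS18B, RPS1A and RPL22B, at 0.06, 0.10 and 0.15. RPS18B had ratios of 0.03, -0.97, -0.04 and -0.78 on arrays 1 to 4, almost those of GUA1, and may share signal with its copy RPS18A. Such distances over 4 arrays describe these arrays only, and arrays of a pair do not count as independent points.

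The rest of purine metabolism was described by 7 lists of 70 genes, of which 69 were measured. Of these 69 genes 1 was called, with a negative ratio, against 1.86% of all features called negative. The means were positive for 31 and negative for 38 genes, with a median of -0.03 against 0.02 for all features. At an unadjusted p below 0.05 in limma there were 18 of 69, against 20.8% of all features. With the term for the array pair, limma called 22 of 69, 8 positive and 14 negative, against 32.7% of all features.

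The called gene belongs to the steps that make IMP. ADE8, for the first formyl transfer of the pathway, had -0.83, -0.98, -0.74 and -1.10 on arrays 1 to 4, a mean of -0.91 ± 0.16 (SD, n = 4) and an adjusted p of 0.0274 in limma. It was negative on every array with little spread. Its limma adjusted p lay between 0.0916 and 0.196 with any 1 array left out, where 0 to 22 of all features were called. Of 13 measured genes of IMP synthesis it was the only one called, and 6 had positive and 7 negative means with a median of -0.05.

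No gene of guanine salvage, nucleotide kinases or guanine breakdown passed the test. Of 14 measured genes of salvage, kinases and breakdown, limma called 0, against 3.23% of all features, so 0 calls in so short a list say little. In limma 8 had an unadjusted p below 0.05, against 20.8% of all features, and the median of the means was 0.05. PHM8, for a phosphatase that acts on nucleotide monophosphates, had the largest mean at 0.80 ± 0.43 (SD, n = 4) with 1.17, 0.44, 1.19 and 0.42 on arrays 1 to 4, positive throughout. FCY22, for a member of the purine and cytosine permease family, had 0.55 ± 0.46. YNK1, for the kinase that makes GTP from GDP, had 0.91, 0.03, 1.02 and 0.15, high only on arrays 1 and 3. GUK1, for the kinase that makes GDP from GMP, had -0.43, -0.71, -0.17 and -0.62, negative on every array with a mean of -0.48 ± 0.24.

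Of the other guanine enzymes, which were named after their values were seen, the guanine deaminase gene GUD1 had 0.43, 0.52, 0.28 and 0.27 on arrays 1 to 4. It was positive on each, at 0.38 ± 0.12 (SD, n = 4) with an adjusted p of 0.125 in limma. HPT1, for the phosphoribosyltransferase that returns hypoxanthine and guanine to IMP and GMP, had 0.41, -0.48, 0.60 and -0.25, with opposite signs in the pairs. XPT1, for the xanthine enzyme, had -0.10 ± 0.22.

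**Figure D4:**
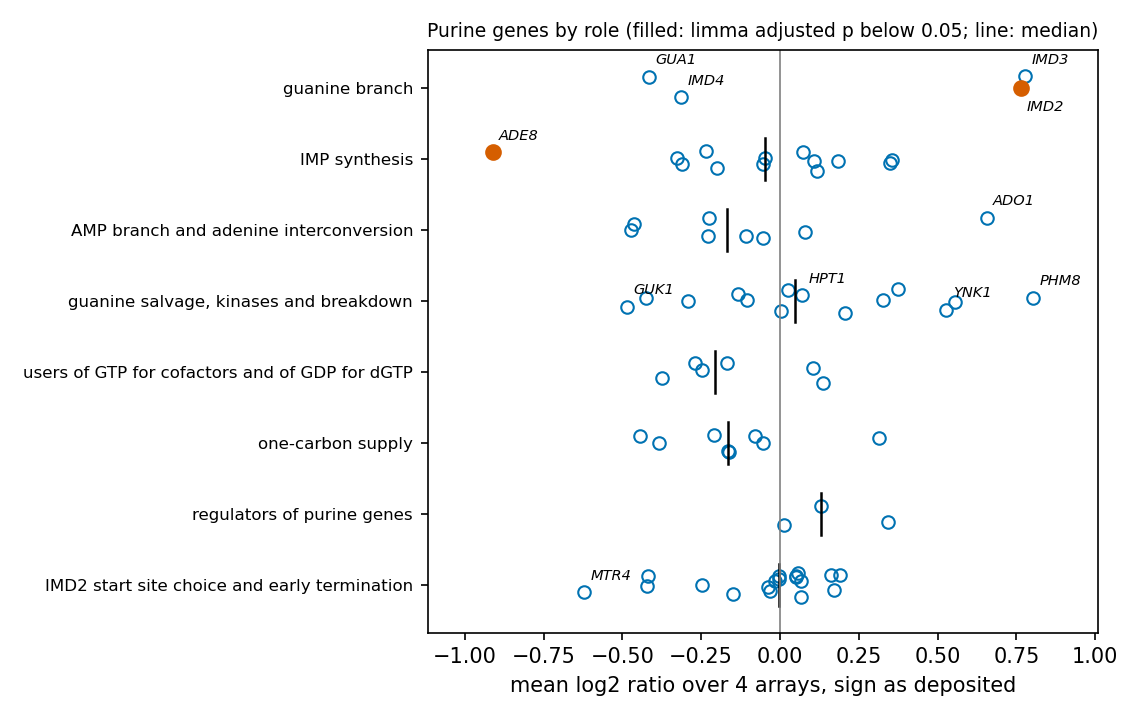
Mean log2 ratio over 4 arrays (horizontal axis, sign as deposited) of the guanine branch genes and of the measured genes of 7 purine lists, 1 circle per gene and a line at each list's median. Filled circles mark genes with an adjusted p below 0.05 in limma's fit over all features, IMD2 and ADE8.

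Limma called 0 genes of the AMP branch, of the users of GTP and GDP, or of one-carbon supply, against 3.23% of all features. At an unadjusted p below 0.05 there were 2 of 8, 1 of 6 and 1 of 8 genes, against 20.8% of all features. The medians of these lists were -0.17, -0.21 and -0.16. In the AMP branch APT2, a paralog of the adenine phosphoribosyltransferase gene, had -0.47 ± 0.24 (SD, n = 4). The largest mean there, 0.66 for the adenosine kinase gene ADO1, rests on a probe that carried the shared value on all 4 arrays. RNR3 and RNR4, for subunits of ribonucleotide reductase, had -0.38 ± 0.18 and -0.27 ± 0.45. The one-carbon genes ADE3 and SHM2 had -0.45 ± 0.12 and -0.39 ± 0.52. SHM2 had 0.06, -1.04, -0.01 and -0.55 on arrays 1 to 4, and so, like GUA1, lay about 0 on arrays 1 and 3 and below it on arrays 2 and 4.

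Factors that act on these genes gave no calls. Of 3 regulators of purine genes, limma called 0, against 3.23% of all features, so 0 calls in so short a list say little. At an unadjusted p below 0.05 there were 0, against 20.8% of all features. GCN4 had both of arrays 1 and 3 above both of arrays 2 and 4, as had 40% of all features. BAS1 and PHO2 had the opposite order, whose share over all features was not counted. The activators of the ADE genes ran one way: BAS1 had -0.48, 1.89, -1.21 and 0.32 on arrays 1 to 4 and PHO2 had -0.39, 1.15, -0.37 and 0.97, negative on arrays 1 and 3 and positive on arrays 2 and 4. GCN4, for the activator of amino acid synthesis, ran the other way, with 0.35, -0.45, 0.50 and -0.34. Of 18 factors of IMD2 start site choice and early termination, limma called 0, against 3.23% of all features. The median of their means was 0.00. In limma 3 had an unadjusted p below 0.05, against 20.8% of all features. The means of the 18 were positive for 8 and negative for 10, and the highest was 0.19, for TFG2. MTR4, for an exosome helicase, had -0.04, -0.80, -1.02 and -0.63, and SSU72, for a phosphatase of RNA polymerase II, had -0.42 ± 0.38 (SD, n = 4). NRD1, named after its values were seen, had -0.34, -0.57, -0.36 and -0.41, negative on all arrays. Its mean was -0.42 ± 0.10, with an adjusted p of 0.0997 in limma. NAB3, of the same list, had both signs, with 0.25, -0.21, 0.28 and -0.34 on arrays 1 to 4.

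The genes beside the 4 had smaller mean ratios than IMD2 and IMD3. So had 98.6% of named genes against IMD2 and 98.7% against IMD3. The group was selected on these means, so nothing is read from this. Single arrays differed: SEN1, 2 places from IMD3, had 1.17 on array 2. In size, the mean of GAS3, 2 places from GUA1, was larger at -0.48 than those of GUA1 and IMD4. Of 23 annotated genes within 3 places on either side, 19 were measured, with means between -0.48 and 0.46. Of these limma called 0, against 3.23% of all features, with 4 at an unadjusted p below 0.05 against 20.8%. With the term for the array pair it called 7, against 32.7%. Beside IMD2, which lies near a chromosome end, the acid phosphatase gene PHO12 had 0.12 ± 0.34 (SD, n = 4) and YHR218W -0.09 ± 0.09, and either may share signal with its copies. Beside IMD3, the autophagy gene ATG23 had 0.46 ± 0.18, with 0.66, 0.32, 0.57 and 0.30 on arrays 1 to 4. ATG23 had the sign of IMD3 on every array, while CRN1, 3 places from IMD3, was negative on every array. Of the 19 measured neighbours 6 had 1 sign on all 4 arrays, against 31.1% of all features.

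IMD3 and IMD4 each lie next to a gene for a catalytic subunit of the phosphatase calcineurin. CNA1, beside IMD3, had 0.37, 0.29, 0.20 and 0.20 on arrays 1 to 4, and CMP2, beside IMD4, had 0.14, -0.17, 0.05 and -0.06. The difference of CNA1 minus CMP2 was 0.27 ± 0.13 (SD, n = 4), in the same direction as IMD3 minus IMD4 but smaller on each array. On the other side of IMD4 lies SPC2, for a signal peptidase subunit, with 0.34 ± 0.35. GUA1 is flanked by the protein kinase gene SKY1 at -0.19 ± 0.32 and by TRS130, for a subunit of a vesicle tethering complex, at 0.29 ± 0.20.

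**Figure D5:**
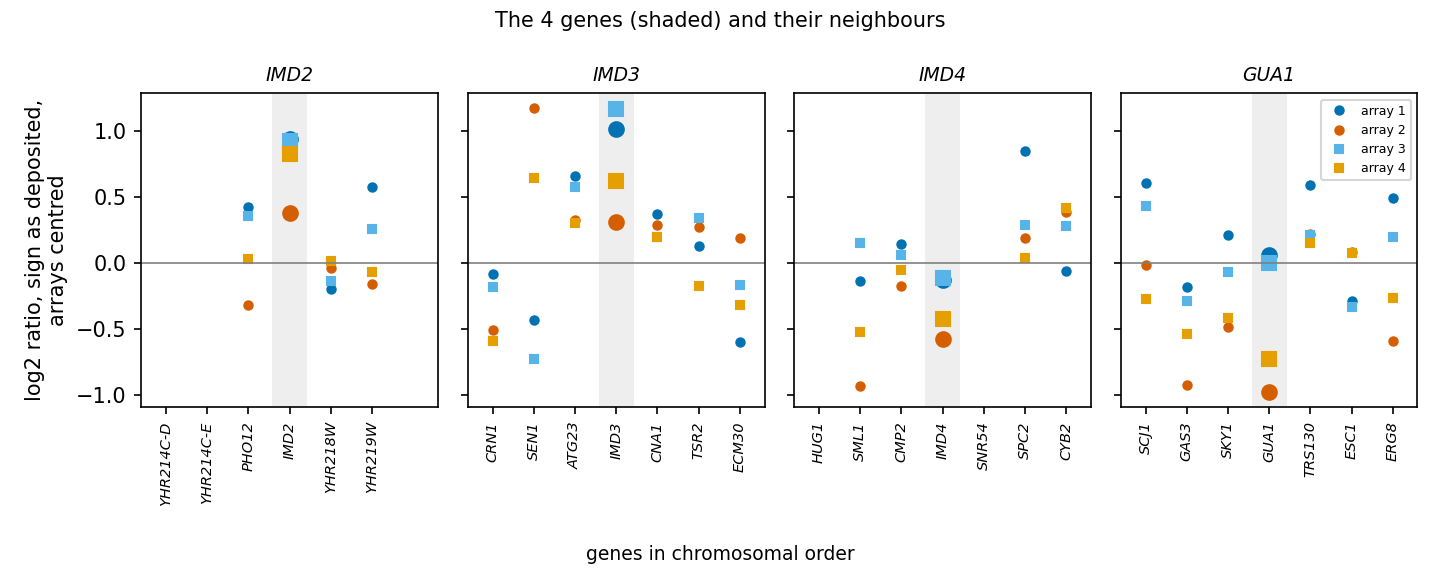
Log2 ratios on arrays 1 to 4 (vertical axis, sign as deposited) of IMD2, IMD3, IMD4 and GUA1 (shaded) and of up to 3 annotated genes on either side, in chromosomal order and not to scale. Genes without a probe have no points. The means of the 19 measured neighbours lie between -0.48 and 0.46.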

How the data were processed

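The deposited table held 1 log ratio per probe and array, for 6226 probes and 4 arrays with 0 missing values. The values were taken as log2, because the deposited columns had both signs and medians between -0.03 and 0.03. The log base, the numerator, the dyes and the authors' background correction and normalization were not found in the labels or the table. Another base would change all log2 ratios by 1 common factor. The fold differences would change as well, since they hold for log2 only. Spot brightness was not used here, and precision is limited by having 4 arrays.

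The platform annotation named 5576 probes, and symbols were updated through the RefSeq table of assembly R64, which matched 5572 of them. That table was used for names and gene order only. The median of each array was subtracted and probes of the same gene were averaged, giving 6189 features. Each was tested against 0 with lmFit and eBayes of limma 3.58.1 in R 4.3.3, with 3 residual degrees of freedom, two-sided, and Benjamini-Hochberg adjustment over all features. This fit treats the 4 arrays as independent replicates although they formed pairs, and its p-values rest on that assumption. The fit was also run on simulated data with independent arrays and probe spreads capped at their median. Those data lack the array pairs seen here, so they do not check the calls of these arrays. Python 3.11.15, pandas 2.3.3 and matplotlib 3.10.9 prepared tables and plots.

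The members and lists were chosen with earlier results of these data known, and list genes come from textbook knowledge. Named were the called genes of each list or the 2 with the largest mean either way, 2 guanine enzymes, the nearest measured neighbours, and the 3 nearest genes by distance, and others as marked. Alternatives were no centring, equal spread, quantile normalization, array weights, robust eBayes, medians of probes, each array left out, a term for the array pair, turned signs of arrays 2 and 4, an adjusted p below 0.01 and a minimum of 1.5-fold. After the data were seen, a fit without the 52 probes that carried a shared value was added.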

Additional observations from a re-analysis of the deposited data

Results flagged for a closer look

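Of 43 named genes checked, 1 had an array far from the other 3. TRS130, beside GUA1, had 0.59 on array 1 against 0.22, 0.21 and 0.15 on arrays 2, 3 and 4, a gap of 0.836 of its range, which is past Dixon's critical value for 4 arrays. About 5% of genes would pass this limit by chance. IMD2, with its lowest value on array 2, had 0.798 and stayed under that value.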

How the results depend on the processing

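The means of the 4 guanine branch genes kept their sign with no centring, equal spread, quantile normalization and array weights. In these settings they moved by less than their SD. Medians of probes could not change the means, since each gene had 1 probe. Leaving out the probes at a shared value, which none of the 4 genes carried, changed only the centring. The means also kept their sign without any 1 array, where a shift by a full SD is not possible with 4 values. Without 1 array they lay between 0.71 and 0.89 for IMD2 and 0.65 and 0.93 for IMD3. For IMD4 they lay between -0.38 and -0.22, and for GUA1 between -0.57 and -0.23. When arrays 2 and 4 were given the opposite sign, the means were 0.16, 0.31, 0.19 and 0.44, so IMD4 and GUA1 changed sign. The cause of the pairing was not tested.

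The adjusted p of IMD2 was 0.0521 with equal spread, 0.0765 with quantile normalization, 0.0793 to 0.275 without 1 array and 0.807 with turned signs. It was 0.0016 with the pair term and 0.0361 with array weights, and from 0.0425 to 0.0493 with no centring, robust eBayes, medians of probes or without the probes at a shared value. Calls over all features were 200, and 98 with quantile normalization, 0 to 22 without 1 array, 2021 with the pair term, 302 with turned signs and 2 at an adjusted p below 0.01. Without arrays 1, 3 and 4, where 0 were called, 898, 1066 and 752 features had an unadjusted p below 0.05. Positive calls with turned signs were 1 of these 302, against 85 of 200.

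Calls among the purine lists were 1, namely ADE8, and 0 without any 1 array, 0 at an adjusted p below 0.01, 22 with the pair term and 2 with turned signs, PRS4 and SEN1. ADE8 then had an adjusted p of 0.872 and the opposite sign. Calls among the neighbours were 0, also without any 1 array, 7 with the pair term and 1 with turned signs.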

Other observations

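Some purine list genes had large ratios of opposite sign in the array pairs, and their means over 4 arrays lie near 0. They were picked after their values were seen. PRS4, for a subunit of the synthetase that makes the ribose precursor of all nucleotides, had -1.35, 1.94, -1.30 and 1.44 on arrays 1 to 4. SEN1, for the helicase of the Nrd1 termination complex and 2 places from IMD3 on the chromosome, had -0.44, 1.17, -0.73 and 0.64. RPO21, for the largest subunit of RNA polymerase II, had -0.36, 0.65, -0.93 and 0.49. IMD2, IMD3, IMD4 and GUA1 had the smaller, opposite gap, with higher ratios on arrays 1 and 3.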
